A study of Mus musculus with 12 samples.

Results

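Oxidative phosphorylation genes were taken as every gene whose symbol begins with Nduf, Uqcr, Atp5, Cox4i, Cox5, Cox6, Cox7 or Cox8, together with Sdha, Sdhb, Sdhc, Sdhd and Cycs, leaving out Cox6a2 and pseudogene symbols. The rule found 96 of the 18609 genes listed in every library. They comprised 40 genes of complex I (7 core subunits, 30 supernumerary subunits and the 3 gene copies Ndufb4b, Ndufb4c and Ndufs6b), 4 of complex II, 8 of complex III, cytochrome c itself, 18 of complex IV, 17 of complex V and the 8 complex I assembly factors Ndufaf1 to Ndufaf8. Of the 96, 95 reached 0.5 FPKM (fragment counts normalised to gene length and library size) in at least 3 libraries and were tested, and Cox6b2 did not. Cox8b reached that level only in libraries from Salmonella-treated hosts, so its passing the filter already implied a difference. The subunits encoded by mitochondrial DNA were not analysed here.

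In the mitochondrial inner membrane, complex I takes electrons from NADH and complex II from succinate, ubiquinone carries them to complex III, and cytochrome c carries them on to complex IV, which reduces oxygen. Complexes I, III and IV pump protons as electrons pass, complex II does not, and complex V (ATP synthase) uses the returning protons to make ATP. Most of the subunits are nuclear genes, and several complex IV subunits exist as a ubiquitous form and as isoforms that are known for muscle, testis, lung or low oxygen.

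RNA was sequenced from whole MC38 tumours (MC38 is a colon carcinoma line of the mouse) grown in C57BL/6 hosts, labelled wild type or TLR4 knockout, that had been injected intravenously with PBS or Salmonella 1 day before. TLR4 is the receptor for bacterial lipopolysaccharide. The 4 combinations of genotype and treatment had 3 libraries each, titled F-1, then M-1, then M-2, which is the order of all values below; the letters are not explained. The knockout is a property of the host, and the labels give neither the Tlr4 status of the MC38 cells, the kind of deletion, the animals' age nor whether each library is a different animal. The p-values therefore describe library-to-library spread, part of which may be technical.

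Libraries held 30508678 to 38758885 fragments over the listed genes. Tlr4 ranged from 2.48 to 3.78 FPKM in the 6 wild-type libraries and from 1.59 to 3.15 FPKM in the 6 knockout libraries, so its level did not separate the genotypes, which are used as labelled. None of the epithelial markers Epcam, Krt8, Krt18, Krt19 and Cdh1 reached the tested level, and the highest value was 2.13 FPKM for Krt19. Values after ± beside log2 differences are standard errors from the fit. Transcripts of muscle, neutrophils and red cells were present at levels that differed between groups and are given beside the results.

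Motif content was read from RefSeq promoters of the GRCm38.p6 assembly, over the 250 bases before each start site, for the 79 of the 96 genes that could be matched by symbol (84 promoters). The motif of NRF1, a factor known for its control of respiratory genes, was searched on both strands as GCGCA and GCGC separated by 1 base of any kind, and the core of ETS-family factors as CCGGAAG on both strands, the latter reading CTTCCGG on the other strand. The NRF1 letters were present in 15 of the 84 promoters (17.9%), against 3.74% of all 32851 mouse promoters in the table. The ETS letters were present in 14 (16.7%), against 6.91%. Only the promoters of Atp5h, Cox6a1 and Sdhd held both, and these are printed because they combine the motifs and because all 3 genes rose with Salmonella in wild-type hosts. The promoter of Sdha holds the NRF1 letters at 3 positions, and it is printed for contrast within complex II because Sdha did not rise. These 4 were chosen partly by their response, so they cannot show whether motif and response go together. When the trend on gene length described below was removed, Atp5h (log2 difference -0.01), Cox6a1 (-0.14) and Sdhd (0.12) were not called. Each sequence runs 5′ to 3′ on the gene's own strand, which is the minus strand in all 4, with motif matches in capitals. The windows are chr11:115419920-115420169 for Atp5h, chr5:115348959-115349208 for Cox6a1, chr9:50603850-50604099 for Sdhd and chr13:74350241-74350490 for Sdha.
Atp5h: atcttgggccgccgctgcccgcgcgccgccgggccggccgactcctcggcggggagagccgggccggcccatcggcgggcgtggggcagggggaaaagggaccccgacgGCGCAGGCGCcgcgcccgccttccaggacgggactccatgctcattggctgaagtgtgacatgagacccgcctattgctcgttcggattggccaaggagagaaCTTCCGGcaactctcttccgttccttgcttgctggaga
Cox6a1: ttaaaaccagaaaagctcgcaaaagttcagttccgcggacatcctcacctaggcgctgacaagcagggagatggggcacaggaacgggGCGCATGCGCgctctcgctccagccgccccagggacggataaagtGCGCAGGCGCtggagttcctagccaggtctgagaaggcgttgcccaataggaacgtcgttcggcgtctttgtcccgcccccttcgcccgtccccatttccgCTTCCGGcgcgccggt
Sdhd: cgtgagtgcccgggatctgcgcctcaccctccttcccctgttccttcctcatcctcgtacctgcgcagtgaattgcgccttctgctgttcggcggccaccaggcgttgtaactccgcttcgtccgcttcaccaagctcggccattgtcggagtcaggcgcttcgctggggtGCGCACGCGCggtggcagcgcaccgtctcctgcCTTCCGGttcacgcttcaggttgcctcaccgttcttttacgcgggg
Sdha: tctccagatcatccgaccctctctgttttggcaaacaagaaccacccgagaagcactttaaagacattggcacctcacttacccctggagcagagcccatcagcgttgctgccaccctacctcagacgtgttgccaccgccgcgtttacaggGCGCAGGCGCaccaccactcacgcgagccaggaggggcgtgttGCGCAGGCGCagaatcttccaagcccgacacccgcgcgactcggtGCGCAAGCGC

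Of the 14 genes with the NRF1 letters 7 rose in wild-type hosts, as did 9 of the 14 with the ETS letters and 36 of all 79 matched genes. A match describes these letters in this window and was not linked to binding of a factor.

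In libraries from wild-type hosts, 44 of the 95 tested genes rose 1 day after Salmonella and only Cox7b2 fell (limma on log2 values, Benjamini-Hochberg adjusted p under 0.05 over 12164 tested genes). Across all tested genes 35.4% were called, 19.2% higher and 16.2% lower. By voom on recovered fragments 44 respiratory genes were called, all higher, and 32.8% of all tested genes. The median log2 difference was 0.38 over the 95 genes and -0.00 over all tested genes. Called genes came from every complex, with 17 of 40 in complex I, 1 of 4 in complex II, 5 of 8 in complex III, 10 of 17 in complex IV and 9 of 17 in complex V, beside Cycs and the assembly factor Ndufaf6. On the scaled values, 39 of the 95 genes were higher in all 3 Salmonella libraries than in all 3 PBS libraries and 1 was lower, where 23.4% and 22% of all tested genes were. The 39 include Cox8b, which passed the filter only through Salmonella libraries. In bulk tissue, a change in the number of cells of a type and a change in RNA per cell cannot be told apart.

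The rise lay in 2 of the 3 libraries. Relative to the wild-type PBS mean, the median over the 95 genes in the wild-type Salmonella group was 0.60 in F-1, 0.52 in M-1 and 0.07 in M-2 (log2). The wild-type PBS libraries lay between -0.06 and 0.06, the knockout PBS libraries between -0.08 and 0.15 and the knockout Salmonella libraries between 0.00 and 0.18. M-2 therefore sat within the range of the libraries outside its group, and the plot of complex medians shows the same for each complex. Without M-2, 77 of the 95 genes rose and 1 fell in wild-type hosts, where 27.5% and 23.9% of all tested genes did. With the trend on gene length described below also removed, 18 rose and 15 fell without M-2, with a median of 0.03. These were 34.7% of the 95 genes, beside 43.7% of all tested genes. The 77 included 35 of 40 genes of complex I, 7 of 8 of complex III, 13 of 17 of complex IV and all 17 of complex V, but 1 of 4 of complex II. The 17 tested genes of complex IV include Cox8b, which passed the filter only through Salmonella libraries. Without F-1 the number called was 6 of 94 (6.38%) and without M-1 it was 10 of 94 (10.6%), below the 17% and 18.9% of all tested genes called there. Leaving out wild-type PBS F-1, M-1 or M-2 gave 18, 26 and 8 of 95 (18.9%, 27.4% and 8.42%), where 24.7%, 23.1% and 19.6% of all tested genes were called.

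**Figure D1:**
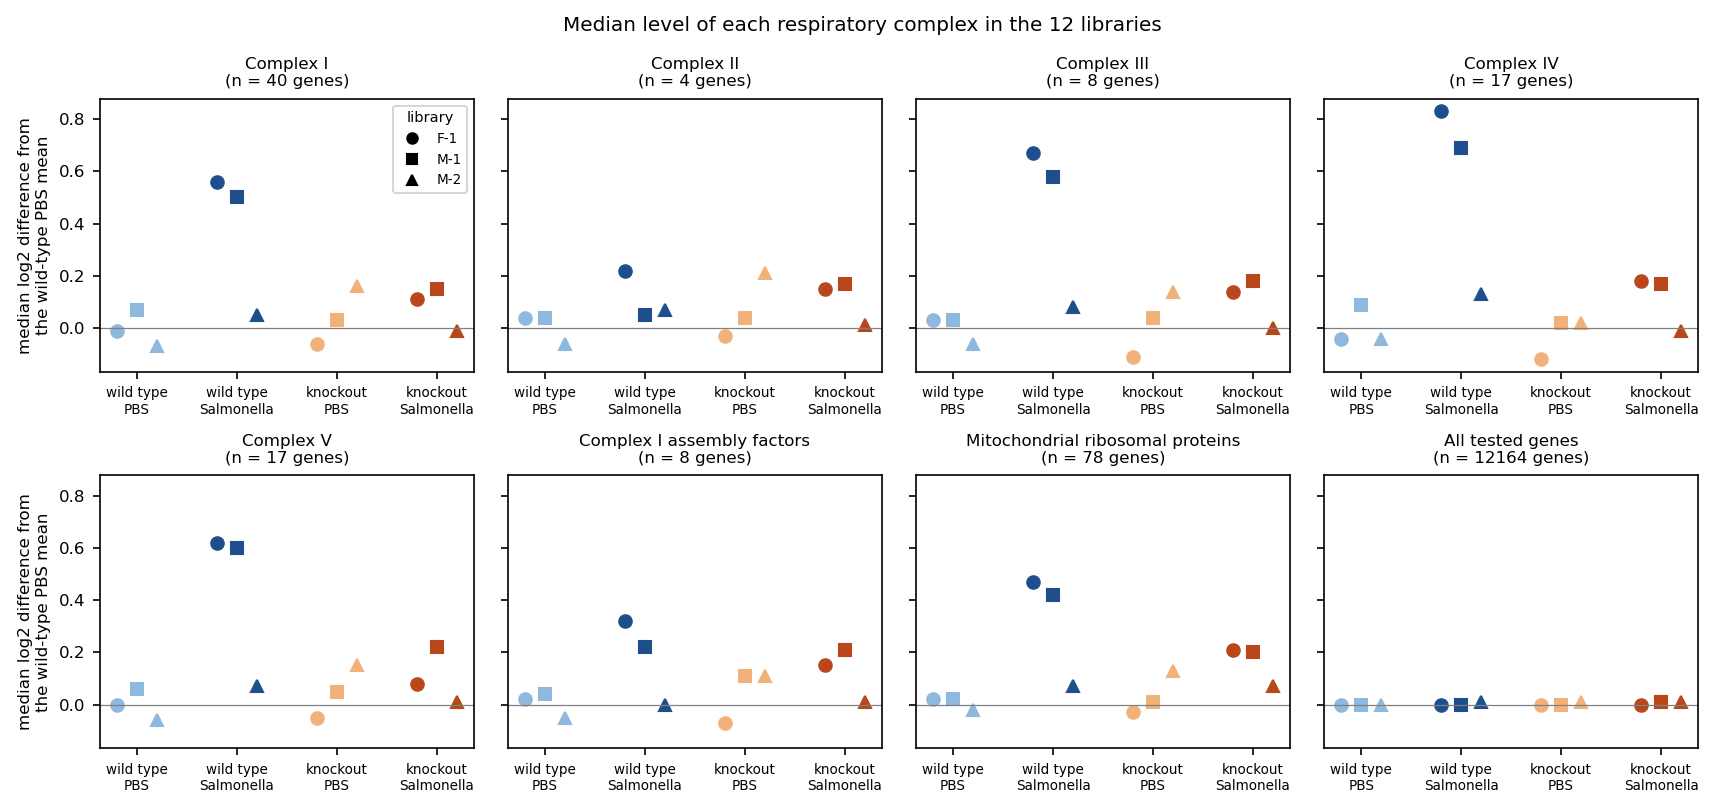
Each point is 1 library and gives the median, over the tested genes of a complex or list, of the log2 difference from the wild-type PBS mean, with circles, squares and triangles for F-1, M-1 and M-2. In the wild-type Salmonella group F-1 and M-1 stand above all other libraries in complexes I, III, IV and V, whereas the all-gene medians lie between -0.00 and 0.01.

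The same 2 libraries had scaling factors of 0.844 and 0.845, against 1.001 to 1.049 in the other 10 libraries. As deposited, before scaling, the 96 genes summed to 15205, 14994 and 12240 FPKM in the wild-type Salmonella group, against 11330 to 12356 FPKM in wild-type PBS. As a share of all listed FPKM the sum was 2.65% ± 0.0693 (SD, n = 3) in wild-type PBS and 2.68% ± 0.0795 (SD, n = 3) in wild-type Salmonella. The differences below are therefore relative to the typical tested gene, and on FPKM as deposited 26 genes rose and 4 fell (12.3% and 27.7% of all tested genes), with a median of 0.18 beside -0.19 over all tested genes. The 4 that fell there were Cox7b2, Ndufa4l2, Ndufaf1 and Uqcrc2.

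The respiratory genes were short, with a median length of 795 bp against 3367 bp over all tested genes, and short genes of any kind were higher in those 2 libraries. Among tested genes under 700 bp outside the list, 59% rose with Salmonella in wild-type hosts, with a median of 0.69, and 52.5% of the 40 respiratory genes of that length did, with a median of 0.46. From 700 to below 1500 bp the shares were 38.4% for other genes and 53.3% for the 30 respiratory genes, with medians of 0.31 and 0.37. From 1500 bp the shares were 15.3% and 28% (25 respiratory genes), with medians of -0.05 and 0.25. When the trend of log2 values on gene length was removed in each library, 7 respiratory genes rose, 11 fell and the median was 0.00, against 30.5% of all tested genes called, 16.5% higher and 13.9% lower. Whether length itself or what short genes share accounts for the rise was not tested.

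**Figure D2:**
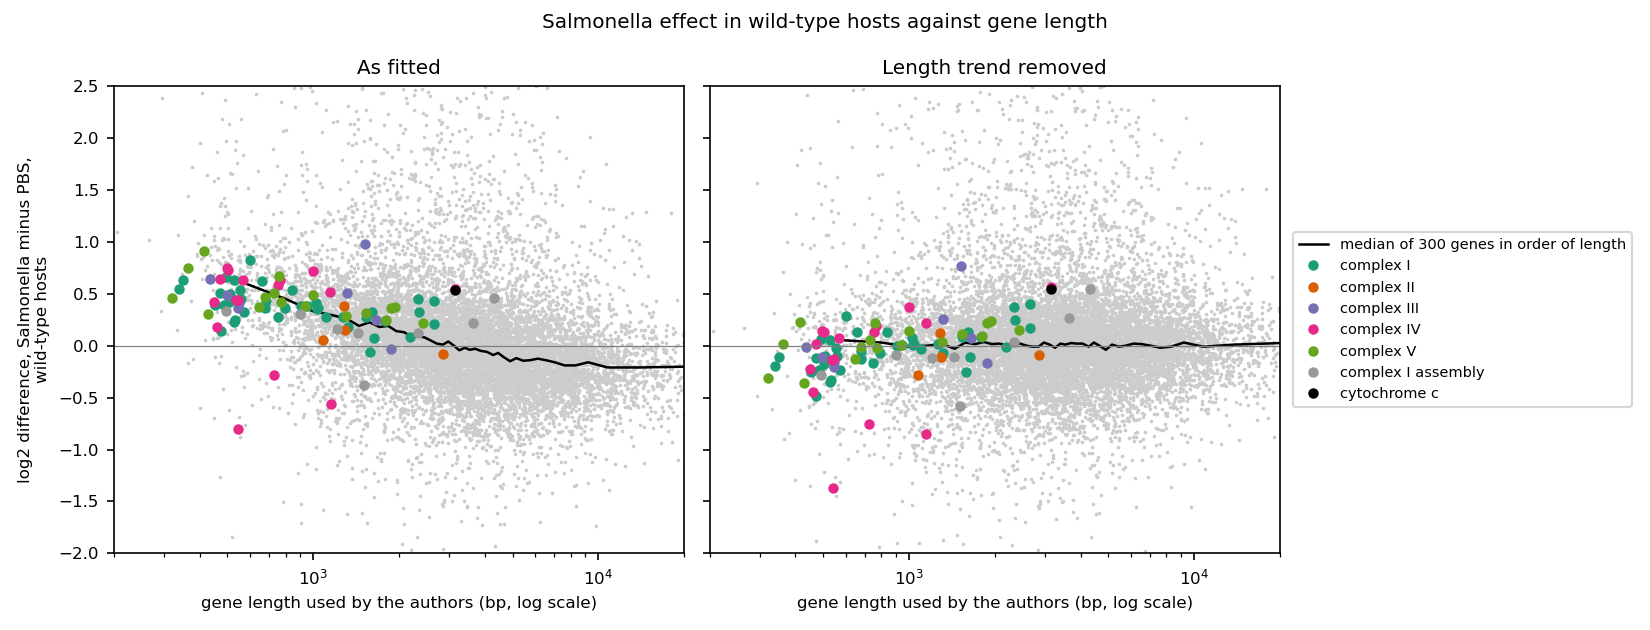
Each grey point is a tested gene, coloured points are respiratory genes by complex, and the black line is the running median of genes ordered by length, with length in bp on a log axis and the log2 difference between Salmonella and PBS in wild-type hosts on the other (genes beyond the axes and Cox8b are not drawn). As fitted the line falls with length and most respiratory genes follow it, and with the trend removed they scatter around 0.

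The 7 genes that rose with and without the length trend were Uqcrq, Cox5a, Cycs, Ndufaf6, Ndufb8, Ndufa2 and Uqcrfs1. With the trend removed their log2 differences ran from 0.26 for Uqcrfs1 to 0.77 for Uqcrq. For some of them the gene length behind the FPKM values is far longer than the coding sequence, with 3153 bp against 438 bp for Cox5a, 3154 bp against 315 bp for Cycs and 1525 bp against 246 bp for Uqcrq (coding lengths from GENCODE M21). Such genes are treated as long in the trend although their proteins are small. The 11 that fell with the trend removed included the subunits Atp5j2 (-0.36), Ndufc1 (-0.35), Ndufb7 (-0.33), Atp5k (-0.31), Sdhb (-0.28), Ndufb4 (-0.25) and Cox7c (-0.22). The others were Cox7b2 (-1.37), the low-oxygen isoforms Ndufa4l2 (-0.85) and Cox4i2 (-0.75), and the assembly factor Ndufaf1 (-0.58). Cox7b2 and Cox4i2 rest on few fragments.

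**Figure D3:**
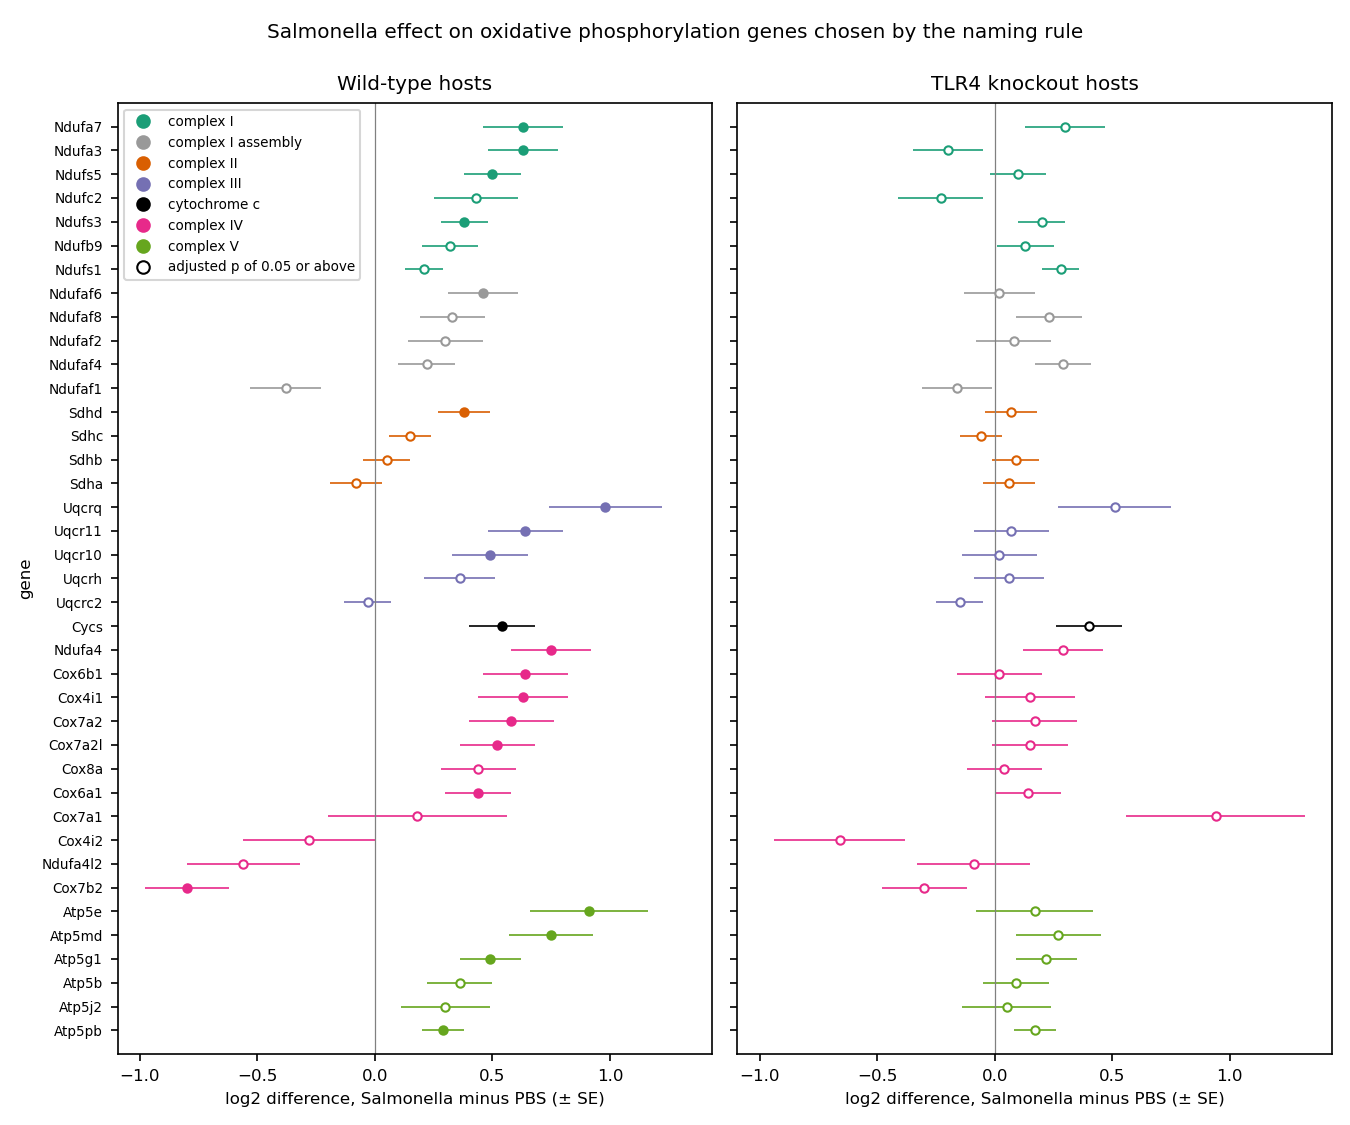
Points are the log2 differences between Salmonella and PBS with their standard errors for the tested genes chosen by the naming rule, other than Cox8b, in wild-type and in knockout hosts, coloured by complex, and filled where the adjusted p was under 0.05. The filled points other than Cox7b2 lie between 0.29 and 0.98 in wild-type hosts, Cox7b2 stands at -0.80, and no point is filled in knockout hosts.

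In complex I, the mean levels ran from 1.11 FPKM for the copy Ndufb4c to 228 FPKM for Ndufb9, a supernumerary subunit of the membrane arm. Core subunits, which include the carriers of the flavin and of the iron-sulphur clusters, rose in 4 of 7 cases (median 0.32), and supernumerary subunits in 13 of 30 (median 0.39). None of the 3 gene copies was called, and reads of these copies may be shared with Ndufb4 and Ndufs6.

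Ndufa3, a supernumerary subunit of the membrane arm, stood at 71.9, 77.8 and 83.4 FPKM in wild-type PBS, 103, 121 and 90.1 FPKM in wild-type Salmonella, 81.3, 92.5 and 96.6 FPKM in knockout PBS and 76.6, 75.7 and 78.3 FPKM in knockout Salmonella. The 3 wild-type Salmonella libraries lay above the 3 wild-type PBS libraries, and the 3 knockout Salmonella libraries below the 3 knockout PBS libraries. The log2 difference with Salmonella was 0.63 ± 0.15 (SE) in wild-type hosts (limma adjusted p = 0.00977) and -0.20 ± 0.15 in knockout hosts (adjusted p = 0.487). Without the length trend the wild-type difference turned to -0.11, and 13 of the 44 genes that rose were then below 0.

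Ndufs5, a supernumerary subunit on the outer face of the membrane arm, stood at 74.4, 85.1 and 74.6 FPKM in wild-type PBS and at 98.3, 99.2 and 89.3 FPKM in wild-type Salmonella. These groups did not overlap, and the log2 difference was 0.50 ± 0.12 (limma adjusted p = 0.00978), which turned to -0.10 without the length trend. Ndufa2, another supernumerary subunit, had the largest difference of the complex, 0.82 ± 0.21 (adjusted p = 0.0124), from 87.1, 109 and 96.7 FPKM to 168, 175 and 113 FPKM. Ndufa7, the second most abundant gene of the complex, went from 166, 209 and 180 FPKM to 259, 275 and 210 FPKM (0.63 ± 0.17, adjusted p = 0.0146), and M-2 was the lowest of the Salmonella libraries for all of these genes. Ndufb9 had 221, 228 and 208 FPKM with PBS and 225, 254 and 233 FPKM with Salmonella, which did not overlap after scaling, and its difference of 0.32 ± 0.12 did not pass (adjusted p = 0.0595).

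The core subunits Ndufs1 and Ndufs3 belong to the matrix arm, and Ndufs1 carries iron-sulphur clusters. Ndufs1 stood at 41.9, 39.3 and 38.1 FPKM in wild-type PBS and at 37.1, 36.2 and 47.2 FPKM in wild-type Salmonella, where M-2 was the highest library. After scaling the groups did not overlap, and the log2 difference was 0.21 ± 0.08 (limma adjusted p = 0.056). Ndufs3 stood at 63.4, 63.3 and 60.7 FPKM and at 68.1, 67.5 and 75.5 FPKM, again highest in M-2 as deposited. For Ndufs3, however, M-2 was the lowest of the Salmonella libraries after scaling, and the log2 difference was 0.38 ± 0.10 (limma adjusted p = 0.0133).

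Of the 8 complex I assembly factors, which are not part of the finished enzyme, only Ndufaf6 rose in wild-type hosts. It stood at 2.14, 2.13 and 2.06 FPKM with PBS and 2.96, 2.89 and 2.26 FPKM with Salmonella (log2 difference 0.46 ± 0.15, limma adjusted p = 0.0332), without overlap. Ndufaf1, which takes part in building the membrane arm, stood at 7.90, 10.4 and 10 FPKM with PBS and at 4.42, 7.22 and 7.31 FPKM with Salmonella. Its scaled log2 difference was -0.38 ± 0.15 (adjusted p = 0.0717), and on FPKM as deposited it was -0.57 and called lower (adjusted p = 0.0208). The 2 most abundant factors, Ndufaf8 and Ndufaf2, differed by 0.33 ± 0.14 and 0.30 ± 0.16 and Ndufaf4 by 0.22 ± 0.12, none past the test. The median over the 8 factors was 0.19, and -0.01 on FPKM as deposited.

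Complex II, which is also the succinate dehydrogenase of the citric acid cycle, had the lowest median of the 5 complexes, a log2 difference of 0.10 over its 4 genes. On FPKM as deposited that median turned to -0.11 and on values without the length trend to -0.10. Without the trend the other medians were -0.03 in complex I, -0.06 in III, 0.07 in IV and 0.05 in V. The 4 genes run from 1079 bp (Sdhb) to 2859 bp (Sdha), against a median of 795 bp over the 95 genes. Sdha, the flavin-bearing subunit, stood at 64.1, 63.3 and 60.7 FPKM in wild-type PBS and at 48.8, 42.3 and 66.3 FPKM in wild-type Salmonella. The libraries F-1 and M-1, which were highest for short subunits, were the lowest of their group for Sdha, both as deposited and after scaling. After scaling the groups overlapped (-0.08 ± 0.11, limma adjusted p = 0.593).

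Sdhb, the iron-sulphur subunit, showed the same order of libraries as deposited, with 144, 145 and 133 FPKM under PBS and 125, 114 and 140 FPKM under Salmonella. That order did not hold after scaling, where F-1 was the highest Salmonella library for Sdhb (0.05 ± 0.10, limma adjusted p = 0.748). Of the membrane anchors, Sdhc stood at 75.5, 79.2 and 74.2 FPKM and at 76.1, 66.1 and 77.9 FPKM (0.15 ± 0.09, adjusted p = 0.231). Sdhd alone rose, from 96.4, 96.1 and 90.5 FPKM to 112, 105 and 102 FPKM (0.38 ± 0.11, adjusted p = 0.0241), and its groups did not overlap.

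In complex III, 4 of the 5 small subunits rose (median 0.49) and, among the core proteins and the Rieske iron-sulphur protein, only the latter, encoded by Uqcrfs1. Uqcrq, which encodes a small subunit next to cytochrome b, stood at 126, 127 and 122 FPKM in wild-type PBS, 261, 245 and 153 FPKM in wild-type Salmonella, 118, 110 and 149 FPKM in knockout PBS and 198, 175 and 155 FPKM in knockout Salmonella. In both genotypes every Salmonella library was above every PBS library. The log2 difference was 0.98 ± 0.24 in wild-type hosts (limma adjusted p = 0.0108), the largest of the 44 that rose, and 0.51 ± 0.24 in knockout hosts (adjusted p = 0.27). The difference between the genotypes' responses was -0.47 ± 0.34 (adjusted p = 0.489).

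Uqcr11, another small subunit, went from 104, 101 and 91.1 FPKM to 143, 151 and 110 FPKM in wild-type hosts (0.64 ± 0.16, limma adjusted p = 0.0121), and Uqcr10 from 164, 160 and 155 FPKM to 225, 203 and 161 FPKM (0.49 ± 0.16, adjusted p = 0.0344). For Uqcr10 the value in M-2 fell among the PBS values. Without the length trend both turned to just below 0, at -0.01 and -0.11. Uqcrh, the hinge protein that faces cytochrome c and the most abundant gene of the complex, had 204, 242 and 218 FPKM with PBS and 252, 266 and 222 FPKM with Salmonella (0.36 ± 0.15, adjusted p = 0.0829). Uqcrc2, a core protein without a redox centre, was lower as deposited, with 70.3, 77.8 and 73.6 FPKM against 64.0, 61.6 and 62.4 FPKM, and not after scaling (-0.03 ± 0.10, adjusted p = 0.826).

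Cycs, the mobile carrier that is also known to trigger the caspase cascade when released, stood at 46.8, 42.4 and 43.7 FPKM in wild-type PBS and at 62.0, 58.1 and 48.9 FPKM in wild-type Salmonella. It had 37.9, 46.7 and 44.0 FPKM in knockout PBS and 54.2, 58.4 and 54.5 FPKM in knockout Salmonella. In both genotypes the Salmonella libraries lay wholly above the PBS libraries, and M-2 was not low in the knockout group. The log2 difference was 0.54 ± 0.14 in wild-type hosts (limma adjusted p = 0.0145) and 0.40 ± 0.14 in knockout hosts (adjusted p = 0.169).

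In complex IV, 9 of the 11 ubiquitous subunits rose in wild-type hosts, with a median of 0.63, the highest of any group of subunits with more than 1 tested gene. Cox4i1, the ubiquitous form of a regulatory subunit, stood at 410, 439 and 392 FPKM with PBS and at 623, 607 and 453 FPKM with Salmonella, without overlap (0.63 ± 0.19, limma adjusted p = 0.0241). Ndufa4, once counted in complex I and now assigned to complex IV, went from 251, 274 and 254 FPKM to 428, 396 and 318 FPKM (0.75 ± 0.17, adjusted p = 0.00825), also without overlap. Its values in knockout hosts were 233, 270 and 287 FPKM with PBS and 289, 358 and 304 FPKM with Salmonella, with no overlap after scaling (0.29 ± 0.17, adjusted p = 0.378).

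Among the other ubiquitous forms, Cox6a1 differed by 0.44 ± 0.14 (limma adjusted p = 0.0341), Cox6b1 by 0.64 ± 0.18 (adjusted p = 0.0197) and Cox7a2 by 0.58 ± 0.18 (adjusted p = 0.0305). For Cox6b1 and Cox7a2, M-2 fell within the PBS range. Cox6a1 turned to -0.14 without the length trend. Cox8a, the most abundant gene of the complex, had 515, 546 and 465 FPKM with PBS and 654, 619 and 521 FPKM with Salmonella and missed the threshold (0.44 ± 0.16, adjusted p = 0.0548). Cox7a2l, which in mouse and human helps to join complexes III and IV and of which C57BL/6 mice are known to carry a short allele, rose by 0.52 ± 0.16 (adjusted p = 0.0274).

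Of the isoforms of narrow expression, none of the 5 that were tested rose, 1 fell and their median was -0.28. Cox7b2, known from testis, stood at 1.97, 2.19 and 2.63 FPKM in wild-type PBS, 1.15, 0.724 and 0.925 FPKM in wild-type Salmonella, 1.33, 1.49 and 1.41 FPKM in knockout PBS and 0.836, 0.855 and 1.49 FPKM in knockout Salmonella. All 3 wild-type Salmonella libraries were lower than all 3 wild-type PBS libraries, and M-2 lay between the other two. The log2(FPKM + 0.5) difference was -0.80 ± 0.18 (limma adjusted p = 0.00744). By voom on recovered fragments it was -1.07 with an adjusted p of 0.0525. In GENCODE M21 (GRCm38) the gene spans chr5:71442824-71548205 on the minus strand.

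Ndufa4l2, a target of the hypoxia factor HIF-1 that is known to replace Ndufa4 under low oxygen, stood at 30.6, 25.8 and 32.6 FPKM in wild-type PBS and at 13.7, 23.9 and 15.6 FPKM in wild-type Salmonella. As deposited the groups did not overlap, and after scaling they did (-0.56 ± 0.24, limma adjusted p = 0.0919). On FPKM as deposited it was called lower, by -0.76 (adjusted p = 0.0193). In knockout hosts it had 21.3, 23.4 and 20.2 FPKM with PBS and 19.8, 14.7 and 26.9 FPKM with Salmonella (-0.09 ± 0.24, adjusted p = 0.858).

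Cox4i2, the isoform of lung and low oxygen, stood near 1 FPKM, from 0.367 to 2.36 over the 12 libraries, and its difference was -0.28 ± 0.28 in wild-type and -0.66 ± 0.28 in knockout hosts, neither past the test. Cox7a1, of heart and skeletal muscle, ranged from 0.0657 to 1.97 FPKM, with differences of 0.18 ± 0.38 and 0.94 ± 0.38. Cox8b, of muscle and brown fat, had 0 fragments in all 6 PBS libraries, 8, 27 and 1 fragments in wild-type Salmonella F-1, M-1 and M-2, and 13, 0 and 4 in the knockout Salmonella libraries. Its mean of 1.06 FPKM in wild-type Salmonella was 4.79 times the 0.221 FPKM that 3 fragments in a wild-type PBS library would give. Wild-type Salmonella M-2 alone, at 0.0728 FPKM, lay below that level. Because Cox8b passed the filter only through Salmonella libraries, this ratio describes the values and is not a test. With Cox8b at that ratio the median stayed at 0.55 for complex IV and at 0.38 for all 95 genes. Cox6b2, of testis, was at most 0.324 FPKM.

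**Figure D4:**
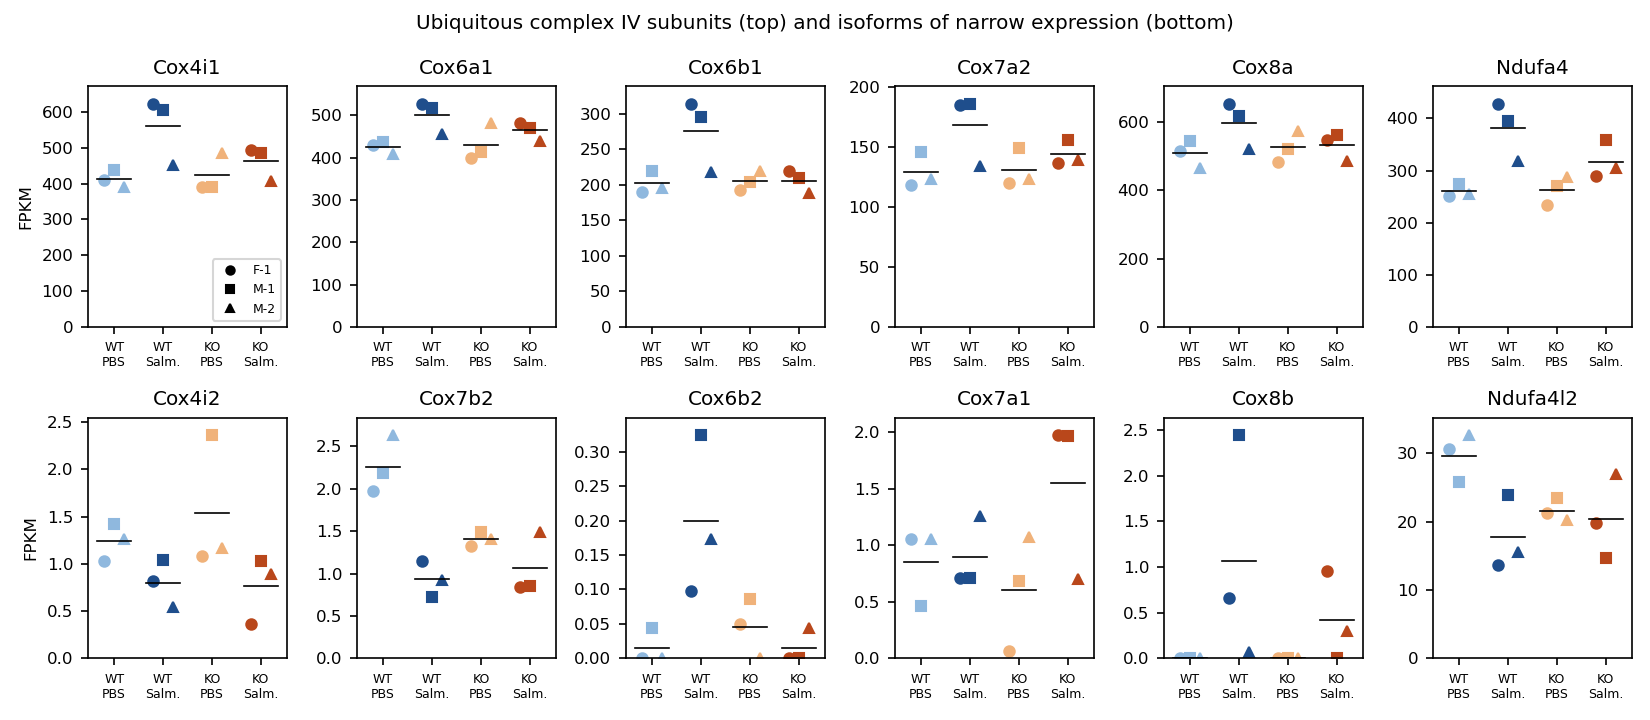
FPKM as deposited for 6 ubiquitous complex IV subunits (upper row) and 6 isoforms of narrow expression (lower row) in each library, with circles, squares and triangles for F-1, M-1 and M-2 and a line at each group's mean. Cox4i1 and Ndufa4 are higher in all wild-type Salmonella libraries than in wild-type PBS, Cox7b2 is lower in all of them, and Cox8b is at 0 in all 6 PBS libraries.

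Skeletal muscle transcripts varied across the same libraries. The 16 muscle markers summed to 28.5 to 37.5 FPKM in wild-type PBS, 136, 131 and 78 FPKM in wild-type Salmonella, 18.4 to 33.2 FPKM in knockout PBS, and 183, 29.6 and 40.8 FPKM in knockout Salmonella. Of these markers 12 were tested and 8 rose in wild-type hosts. The sums include Eno3, at 8.45 to 13.1 FPKM over the 12 libraries, and Cox6a2, at 4.38 to 24.3 FPKM. In F-1 of wild-type PBS and of wild-type Salmonella, Eno3 stood at 9.85 and 11.3 FPKM and Cox6a2 at 11.2 and 10.2 FPKM. Acta1 stood at 0.868 and 45.1 FPKM there. Knockout Salmonella F-1 had the highest muscle sum of all 12 libraries. The 12 neutrophil markers summed to 17.5 to 29.1 FPKM in wild-type PBS and to 3888, 21137 and 3202 FPKM in wild-type Salmonella. In knockout hosts the neutrophil sum was 16.1 to 20 FPKM with PBS and 580 to 1104 FPKM with Salmonella. The 7 red cell markers summed to 28.8 to 65.6 FPKM in wild-type PBS and to 396, 376 and 148 FPKM in wild-type Salmonella, and all 5 that were tested rose. In knockout hosts that sum was 10.4 to 37.1 FPKM with PBS and 25.1 to 49.8 FPKM with Salmonella. Of the white fat markers 1 of 3 tested rose, of the macrophage markers none of 6 was called (median -0.32), and of the proliferation markers Pcna rose (0.33) and Mki67 fell (-0.42). Medians over the respiratory genes were 0.60, 0.52 and 0.07 in the wild-type Salmonella libraries and 0.14, 0.18 and 0.00 in the knockout Salmonella libraries. The part of these cell types in the respiratory genes was not tested.

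In complex V, all 17 genes had a log2 difference above 0 in wild-type hosts, from 0.22 to 0.91, and 9 passed the test. By position, 1 of 5 genes of the catalytic F1 part rose, 2 of 3 of the proton-turned c ring, 3 of 4 of the peripheral stalk and 3 of 5 of the membrane part. The F1 gene that rose, Atp5e, has a gene length of 414 bp, against 1879 bp for Atp5b. With the length trend removed none of the 17 rose and 2 fell, where 16.5% and 13.9% of all tested genes did. Their median was then 0.05. Atp5e, the small epsilon subunit of F1, stood at 297, 318 and 300 FPKM in wild-type PBS, 579, 627 and 337 FPKM in wild-type Salmonella, 305, 292 and 361 FPKM in knockout PBS and 378, 364 and 320 FPKM in knockout Salmonella. Wild-type F-1 and M-1 stood apart from all other libraries. The difference was 0.91 ± 0.25 in wild-type hosts (limma adjusted p = 0.0165) and 0.17 ± 0.25 in knockout hosts (adjusted p = 0.728).

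Atp5b, the catalytic beta subunit and the most abundant gene of the whole list, had 715, 639 and 643 FPKM with PBS and 818, 705 and 701 FPKM with Salmonella in wild-type hosts. The groups overlapped, and the test was not passed (0.36 ± 0.14, limma adjusted p = 0.0693). Atp5md, a small membrane subunit, went from 232, 281 and 234 FPKM to 396, 404 and 295 FPKM without overlap (0.75 ± 0.18, adjusted p = 0.0107). Of the c ring genes, which encode the same mature protein, Atp5g1 went from 86.0, 80.8 and 76.4 FPKM to 108, 96.4 and 92.6 FPKM (0.49 ± 0.13, adjusted p = 0.0168). Atp5pb, subunit b of the stalk, had the smallest called difference of the complex (0.29 ± 0.09, adjusted p = 0.0332), and Atp5j2, a membrane subunit, missed the test with 0.30 ± 0.19 (adjusted p = 0.221). With the length trend removed Atp5j2 was called lower (-0.36, limma adjusted p = 0.00522).

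In TLR4 knockout hosts no respiratory gene was called between Salmonella and PBS by limma or by voom, and 5 had an unadjusted p under 0.05 in limma. Of all tested genes 0.756% were called by limma, 0.427% higher, and 0.0493% were called higher by voom. The median over the 95 genes was 0.06, and by complex it ran from 0.05 in complexes I and V to 0.15 in complex IV. The 5 genes were Cycs, Ndufs1, Ndufaf4, Cox4i2 and Cox7a1. Ndufs1 stood at 37.8, 39.5 and 42.4 FPKM with PBS and at 49.5, 47.8 and 46.0 FPKM with Salmonella, without overlap, and had the smallest p of the 5 (0.28 ± 0.08, limma adjusted p = 0.108). Groups did not overlap for 9 genes that were higher and 3 that were lower, where 14.7% of all tested genes were higher and 14.7% lower. Without wild-type Salmonella M-2, which enters this contrast only through the shared estimate of spread, 3 genes (3.16%) were called higher, near the 3.42% of all tested genes. With the length trend removed Ndufb7, a supernumerary subunit, was the single gene called (-0.41), where 1.32% of all tested genes were.

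Under PBS, knockout and wild-type hosts had no respiratory gene called by limma or voom, and 2 had an unadjusted p under 0.05 in limma, Cox7b2 (-0.52 ± 0.18) and Ndufaf3 (0.32 ± 0.12). Among all tested genes 0% were called. The median over the list was 0.02. Groups did not overlap for 5 genes that were higher in knockout hosts and 2 that were lower, where 3.91% and 3.98% of all tested genes were.

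Under Salmonella, 2 respiratory genes were lower in knockout than in wild-type hosts, and of all tested genes 8.74% were called, 2.92% higher and 5.82% lower. This comparison and the response in wild-type hosts share the wild-type Salmonella libraries. The median was -0.30, beside 0.00 over all tested genes, and 39 of the 95 had an unadjusted p under 0.05. On FPKM as deposited the median was -0.12 beside 0.16 over all tested genes. With the length trend removed it was -0.03 beside -0.00. The complex II median was -0.01 as scaled and 0.17 as deposited, and that of the assembly factors -0.04 and 0.13. Groups did not overlap for 4 genes that were lower (Ndufa3, Ndufs5, Ndufv1 and Sdhc) and none that was higher, where 13.7% and 12.1% of all tested genes were. Both called genes encode supernumerary subunits of the complex I membrane arm. Ndufa3, whose values are given above, differed by -0.61 ± 0.15 (limma adjusted p = 0.0326), with all 3 knockout libraries below all 3 wild-type libraries. Ndufc2 stood at 93.4, 102 and 74.3 FPKM in wild-type and at 58.7, 74.4 and 61.4 FPKM in knockout hosts, a difference of -0.64 ± 0.18 (adjusted p = 0.0497) with overlapping groups. By voom neither gene was called, where 4.37% of all tested genes were, 1.46% higher and 2.9% lower. With the length trend removed 2 other genes were called, Ndufc1 (0.29) and Sdhb (0.34), both higher, where 9.16% of all tested genes were called, 3.1% higher and 6.06% lower. Without wild-type Salmonella M-2 the count became 1 higher and 74 lower, where 16.6% and 21.2% of all tested genes were. Without any other Salmonella library, or without wild-type PBS M-2, the count was 0. Of all tested genes, 0.083% to 0.506% were called without wild-type Salmonella F-1 or M-1, or knockout Salmonella M-1 or M-2. The share was 4.73% without knockout Salmonella F-1 and 4.76% without wild-type PBS M-2. Leaving out any of the remaining 5 PBS libraries left 1 (1.05%), where 5.74% to 8.43% of all tested genes were called.

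The response to Salmonella was tested for a difference between genotypes as an interaction. No respiratory gene passed by limma or voom, 11 had an unadjusted p under 0.05 in limma, and 0.0247% of all tested genes were called. The median interaction was -0.32 over the 95 genes, -0.41 in complex IV, -0.38 in complex V, -0.37 in complex III, -0.32 in complex I and -0.08 in complex II, which was 0.10 on FPKM as deposited. With the length trend removed the median was -0.05 over the 95 genes. It was then -0.05 in complex IV, -0.08 in V, -0.07 in III, -0.03 in I and 0.06 in II. The 11 genes with an unadjusted p under 0.05 before that removal were Ndufa3, Ndufc2, Uqcr11, Cox6b1, Ndufa11, Ndufs5, Atp5l, Ndufb7, Uqcrfs1, Ndufv1 and Atp5g3, all with negative values. Ndufa3 had the smallest p, with an interaction of -0.83 ± 0.21 (adjusted p = 0.217). Without wild-type Salmonella M-2 54 genes were lower in the interaction, 12.1% of all tested genes being lower. Without wild-type Salmonella F-1 or M-1 none was, where 0.0249% and 0.0166% of all tested genes were. With the length trend also removed, leaving out M-2 gave 7 lower and 2 higher, 9.47% of the 95 genes beside 12% of all tested genes.

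Other mitochondrial genes were described with lists chosen by role, and their medians are on scaled values. In wild-type hosts 19.2% of all tested genes were called higher and 16.2% lower. Among genes outside the respiratory list 59% rose under 700 bp and 38.4% from 700 to below 1500 bp. The lists were not examined with the length trend removed. In wild-type hosts 38 of 78 mitochondrial ribosomal protein genes rose and none fell (median 0.30), and 16 of 24 genes of protein import rose and none fell (median 0.46). The library medians of the ribosomal proteins in the wild-type Salmonella group were 0.47, 0.42 and 0.07. Timm10, an intermembrane space chaperone of import, differed by 0.97 ± 0.18 (limma adjusted p = 0.00381), and Mrpl17, of the large mitochondrial ribosomal subunit, by 0.53 ± 0.09 (adjusted p = 0.0026). Of 6 tested carriers and porins 1 rose, the ATP/ADP carrier Slc25a5 (0.62 ± 0.19, adjusted p = 0.0244).

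In the citric acid cycle list with pyruvate dehydrogenase, 6 of 19 genes rose and 1 fell (median 0.20). The malate dehydrogenase gene Mdh2 differed by 0.63 ± 0.15 (limma adjusted p = 0.00942), and pyruvate carboxylase, Pcx, by -0.62 ± 0.08 (adjusted p = 0.000901). Pcx also fell in knockout hosts (-0.47 ± 0.08, adjusted p = 0.0314). Of 38 tested assembly factors with symbols outside the rule 11 rose and 4 fell (median 0.12), and the smallest p was that of Sdhaf1, which takes part in loading iron-sulphur clusters into complex II (0.85 ± 0.15, adjusted p = 0.00251). Of 18 genes of mitochondrial biogenesis and mitochondrial DNA expression 2 rose and 1 fell, with a median of -0.05. In the cytosol, 83 of 85 ribosomal protein genes rose (median 0.77), with library medians of 1.06, 1.06 and 0.17. Of all tested genes 19.2% were called higher, and this list too was not examined with the length trend removed.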

How the data were processed

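Per the labels' protocols, TRIzol was used for RNA and the VAHTS Universal V6 RNA-seq kit for the libraries. The authors deposited 1 FPKM table per library. The submitters' processing notes name fastp, HISAT2 and HTSeq, and the sources used here do not give the genome build, annotation or strand setting, so genes with near-identical copies or overlapping antisense genes are uncertain. The unit was read from the values: in all 18222 genes above 0 the 12 values came out as whole fragments (within 0.01 of a fragment) of a constant gene length. Those recovered fragments give the depth of 30508678 to 38758885 per library and the gene lengths used above.

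FPKM were divided by trimmed-mean-of-log-ratios factors (30% of ratios and 5% of levels trimmed), and log2(FPKM + 0.5) was tested with limma 3.58.1 (trend, robust) in R 4.3.3, with 1 mean per group over all 12 libraries and 2-sided Benjamini-Hochberg adjusted p over the 12164 genes that reached 0.5 FPKM in 3 or more libraries (8 residual degrees of freedom). Fold changes on this scale understate the change of low genes. Standard errors come from that fit, and the script was tested on simulated data. Alternatives were other scalings, pseudocounts of 0.1 and 1, no filter, only the groups compared, a replicate block, voom on recovered fragments, removal of the length trend (loess) and leaving out each library. Removing the trend together with wild-type Salmonella M-2 was chosen after seeing the data. Genes were named by a rule: for each complex the 2 most abundant and the 2 of smallest p in each genotype, all genes called between genotypes or against the majority, the Sdh genes, Cycs and the isoform pairs. Ndufa2, and the genes that rose or fell without the length trend, were named after their values were seen. The genes and lists were chosen with earlier results of these data known. The values of 1 gene of the list are not reported here singly.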

Additional observations from a re-analysis of the deposited data

How the results depend on the processing

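The replicate block on the title labels gave 45 calls in wild-type hosts (38 of the 44 rises among them). These were 47.4% of the 95 genes, beside 34.9% of all tested genes. The block gave 3 calls between genotypes under Salmonella (3.16% beside 8.42%) and none in the other comparisons, where 0% to 0.378% of all tested genes were called. The labels do not pair the libraries: deviations of same-label libraries correlated from -0.332 to 0.397 over 18 pairs and those of other labels from -0.378 to 0.409 over 36. The wild-type count moved from 45 to 6 with only the groups compared (6.32% of the 95 genes beside 19.9% of all tested genes). It moved to 18 without the length trend (18.9% beside 30.5%) and to 33 with M-2 also left out (34.7% beside 43.7%). With the length trend kept, it ran from 6 (6.38% beside 17%) to 78 (82.1% beside 51.4%) over omitted libraries. The knockout count moved from 0 to 1 without the length trend (1.05% beside 1.32%) and to 6 with M-2 also left out (3 higher and 3 lower, 6.32% beside 6.11%). Over omitted libraries it ran from 0 (beside 0.033% to 2.45%) to 3 (3.16% beside 6.11%). The count between genotypes under Salmonella moved from 2 to 1 on FPKM as deposited (beside 11.7% of all tested genes), with pseudocounts of 0.1 and 1 (beside 7.6% and 8.66%) or with no filter (beside 4.54%). The gene called with no filter belonged to complex IV and was neither Ndufa3 nor Ndufc2. The count moved to 0 with only the groups compared (beside 0.0987%) or voom (beside 4.37%), and to 33 without the length trend and M-2 (34.7% beside 32%). Over omitted libraries the same count ran from 0 (beside 0.083% to 4.76%) to 75 (78.9% beside 37.8%). Removing the length trend alone gave 2 other genes, Ndufc1 (0.29) and Sdhb (0.34), both higher. The interaction count moved from 0 to 9 without the length trend and M-2 (9.47% beside 12%). Over omitted libraries it ran from 0 (beside 0.0165% to 0.0332%) to 54 (56.8% beside 18.3%). The count under PBS was 0 in every setting run. Without the length trend 13 of the 44 wild-type rises were below 0, from -0.25 (Ndufb4, called lower) to -0.01, among them the named genes Ndufa3 (-0.11), Ndufs5 (-0.10), Uqcr10 (-0.11), Uqcr11 (-0.01) and Cox6a1 (-0.14). With M-2 also left out 12 were below 0, from -0.32 (Ndufb4) to -0.01, and these 5 were -0.18, -0.17, -0.10, -0.01 and -0.18, with Ndufs3 at -0.07. The cause was not tested beyond these settings. Depth was not the limit for most genes, but Cox8b, Cox6b2, Cox7a1, Cox4i2 and Cox7b2 rest on few fragments. Cox7b2, with a gene length of 543 bp, was the single gene called lower by limma in wild-type hosts.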
